A study of Mus musculus with 12 samples.

Results

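The transcription factors Tox and Tox2 and the inhibitory receptors Pdcd1, Lag3, Tigit and Havcr2 are described here, 6 genes of the 18601 counted by single-cell RNA sequencing in mouse CD4 T cells. They were chosen by name as the Tox factors and receptors associated with T cell exhaustion. No rule on their values was applied, but earlier results of these data were known. The values are counts of unique molecular identifiers (UMIs, 1 per captured transcript) in CD3-positive cells, which were cells with 3 or more UMIs of Cd3d, Cd3e and Cd3g together. That kept 29623 of 32763 cells. The study transferred Th1 cells into recipient mice and compared, at a later time not given in the sources used here, cells of control origin, with 1 normal and 1 eGFP-carrying allele of the interleukin-23 receptor gene (Il23r wt/eGFP), with knockout cells (KO, Il23r eGFP/eGFP). Every donor thus carried at least 1 eGFP allele. Cells came from the spleen and from the lamina propria of the colon (2 control and 2 KO libraries each, replicates 1 and 2) and from the lamina propria of the small intestine and the epithelium of the colon (1 control and 1 KO library each, replicate 2). The labels do not give the age, the recipients' genotype, the number of mice per library or which libraries share a recipient, and they do not say that replicates were separate cultures or animals. The p-values below therefore measure only the spread between these libraries.

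PD-1 (the product of Pdcd1), LAG-3, TIGIT and TIM-3 (Havcr2) are receptors that dampen T cell responses. PD-1 binds PD-L1 and PD-L2 and brings the phosphatase SHP2 (Ptpn11) to the antigen receptor, LAG-3 binds MHC class II, TIGIT competes with the activating receptor CD226 for the nectin-family ligand CD155 (Pvr), and TIM-3 marks interferon-gamma-producing Th1 cells and has galectin-9 among its reported ligands. Tox and Tox2 are nuclear HMG-box proteins. Tox is required for the exhausted state of CD8 T cells under persistent antigen, and Tox2 takes part in the programme of follicular helper T cells. All of these receptors are also raised for a time by ordinary activation, so their transcripts alone do not define exhaustion.

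The genes lie on 6 chromosomes of the mm10 build: Tox at chr4:6686353-6991557 (minus strand), Tox2 at chr2:163203125-163324170 (plus), Pdcd1 at chr1:94038305-94052553 (minus), Lag3 at chr6:124904361-124911705 (minus), Tigit at chr16:43648867-43664146 (minus) and Havcr2 at chr11:46454935-46481255 (plus). Each is a protein-coding gene. Tox alone overlaps another annotated gene, Gm11802 on the opposite strand, which was not counted. Because the chemistry reads transcripts near their 3′ ends and transcripts differ in length, levels were compared between libraries and not between genes.

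To show what lies before the genes, the promoter sequences held by RefSeq are given for 3 receptors whose levels differed between tissues (GRCm38.p6, 250 bases before to 50 after the start, printed 5′ to 3′ on the gene's own strand). Capitals mark matches, on either strand, to the core bound by NFAT (GGAAA), the site of AP-1 (TGANTCA) and the site of RUNX factors (TGTGGT), which are transcription factor families active in T cells. The Pdcd1 window is chr1:94052504-94052803 (minus), the Tigit window chr16:43664135-43664434 (minus) and the Havcr2 window chr11:46454681-46454980 (plus).
Pdcd1: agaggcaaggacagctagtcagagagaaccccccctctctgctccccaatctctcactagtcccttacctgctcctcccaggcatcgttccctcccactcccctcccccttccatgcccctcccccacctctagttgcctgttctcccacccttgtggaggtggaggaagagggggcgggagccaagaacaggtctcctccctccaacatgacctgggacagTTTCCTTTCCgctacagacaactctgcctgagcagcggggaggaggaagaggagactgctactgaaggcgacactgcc
Tigit: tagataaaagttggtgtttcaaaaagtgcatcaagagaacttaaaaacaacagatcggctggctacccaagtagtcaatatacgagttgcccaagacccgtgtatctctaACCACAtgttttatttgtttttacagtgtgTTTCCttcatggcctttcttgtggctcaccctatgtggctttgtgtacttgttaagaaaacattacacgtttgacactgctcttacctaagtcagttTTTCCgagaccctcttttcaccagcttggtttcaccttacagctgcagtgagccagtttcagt
Havcr2: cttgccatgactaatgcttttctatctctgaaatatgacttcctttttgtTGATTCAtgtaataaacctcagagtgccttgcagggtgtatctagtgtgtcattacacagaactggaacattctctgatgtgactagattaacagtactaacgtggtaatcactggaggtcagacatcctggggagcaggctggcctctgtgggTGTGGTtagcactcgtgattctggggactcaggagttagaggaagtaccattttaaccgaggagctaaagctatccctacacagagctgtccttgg
The Pdcd1 window held 2 NFAT cores and no AP-1 or RUNX match. The Tigit window held 2 NFAT cores and 1 RUNX match, and the Havcr2 window 1 AP-1 and 1 RUNX match with no NFAT core. Of 27025 promoter windows of this length, 61.3% held the NFAT core, 7.93% the AP-1 site and 16.9% the RUNX site. A match describes these letters only, and binding was not measured.

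Libraries held 764 to 3661 CD3-positive cells (50.6% to 98.4% of their cells), 1902990 to 13248318 UMIs, and a median of 2273 to 5690 UMIs per cell. The lowest share of CD3-positive cells was in the small intestine KO library. The Batch given in the cell table equalled the replicate number in all 32763 cells. Batch 1 thus held 4 libraries and Batch 2 held 8. Xist stood at 585 to 1004 CPM (the usual unit of UMIs scaled to the library's total, here that of its CD3-positive cells) in Batch 1 and at most 0.325 in Batch 2, and the Y-linked Eif2s3y at 0 and at 52.4 to 116 CPM, both genes chosen after their values were seen. Libraries numbered 1 and 2 in a group were therefore not repeats of 1 pool of cells, and this split of X- and Y-linked transcripts cannot be told apart from batch. Il23r itself was at 0.314 to 4.20 CPM with overlapping genotypes, and 3′ UMIs need not report the altered allele. In all, 677 cell barcodes occurred in more than 1 library (1363 cells). Cells with a Foxp3 UMI, which marks regulatory T cells, were 0.0483% to 1.18% of a library and those with a Cd8a or Cd8b1 UMI 0.723% to 3.72%. Cd4 itself was caught in 41.1% to 78.0% of cells.

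Across tissues the receptors did not share 1 order, and no tissue difference of the Tox factors passed the test (plot of levels by library). Lag3, Pdcd1 and Havcr2 had their highest levels in the colon epithelium, whereas Tigit was high in both lamina propria tissues and low in spleen and epithelium.

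**Figure D1:**
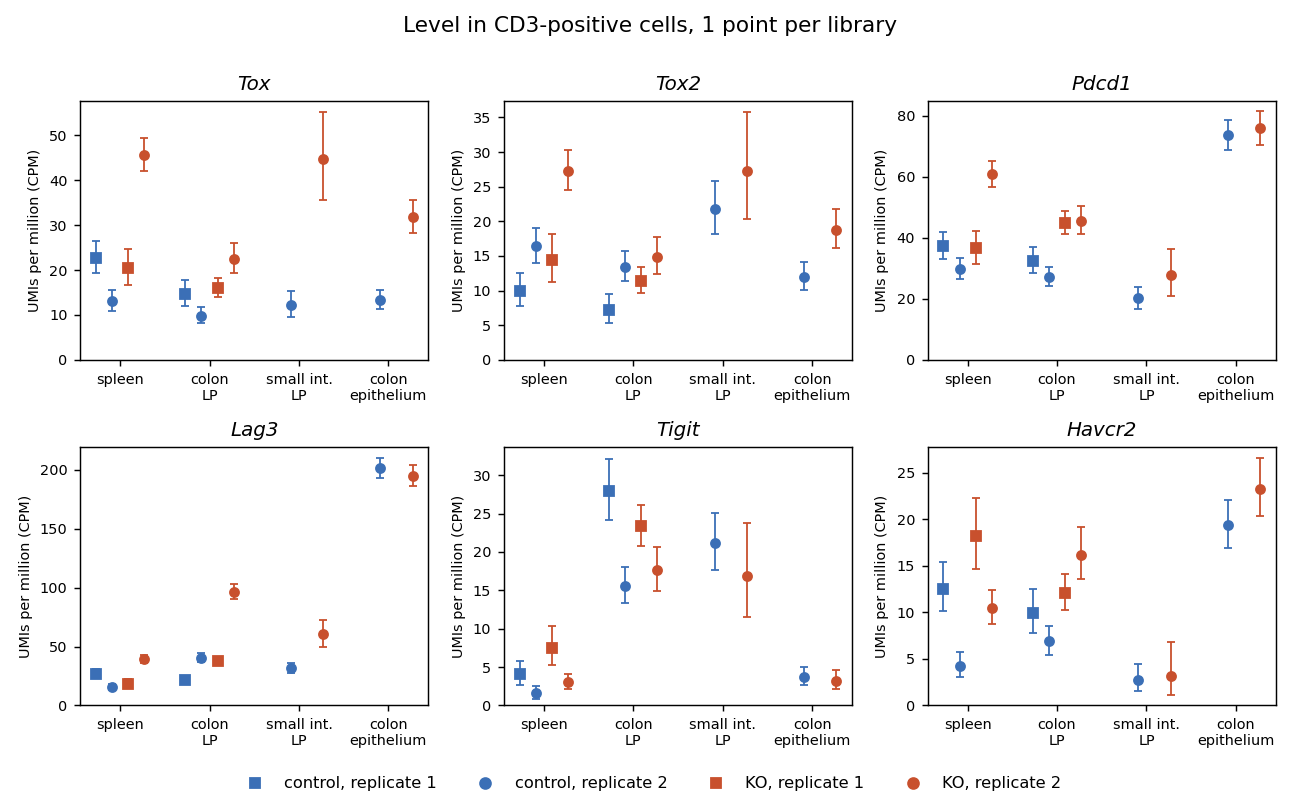
Level of each gene in CD3-positive cells (CPM, vertical axis from 0 on a linear scale) by tissue, 1 point per library with its exact Poisson 95% interval. Blue is control and orange KO, squares are replicate 1 and circles replicate 2. Both Lag3 epithelial libraries lie near 200 CPM, and every Tigit library of the lamina propria lies above every spleen and epithelial library.

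Lag3, the MHC class II receptor, was counted at 201 CPM in control cells and at 195 CPM in KO cells of the colon epithelium. In colon lamina propria it stood at 21.4 and 40.5 CPM in control replicates 1 and 2 and at 37.4 and 96.5 CPM in KO. In small intestine the control and KO values were 31.5 and 60.4 CPM, and in spleen 27.1 and 15.3 CPM (control) and 18.2 and 39.3 CPM (KO). The epithelial libraries thus stood apart from the other 10, while the remaining tissues overlapped. Against spleen, within replicate 2, epithelial Lag3 was higher by 3.03 ± 0.41 on the log2 scale (SE, edgeR quasi-likelihood test, Benjamini-Hochberg adjusted p = 0.0164). The call was lost when the spleen control library (adjusted p = 0.102) or the spleen KO library (0.104) was left out. Against colon lamina propria the difference was 1.53 ± 0.38 and did not pass (adjusted p = 0.0638), although it did by DESeq2 (0.000332) and in a fit of all 12 libraries (0.0399). Its size changed with the genotype left in the epithelium: it was 0.81 without the epithelial control library and 2.15 without the epithelial KO library. The fit had 1 genotype term for all tissues. In replicate 2 control and KO were alike in epithelium (201 and 195 CPM) but stood at 40.5 and 96.5 CPM in colon lamina propria. In that tissue Lag3 was 1.10 ± 0.38 above spleen, which did not pass in edgeR either (adjusted p = 0.0668, DESeq2 0.00660, and 0.0498 without the colon lamina propria KO library of replicate 1).

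Havcr2, which encodes TIM-3, showed the same highest tissue at lower counts. Its epithelial levels were 19.4 CPM (control) and 23.3 CPM (KO), and its small intestinal levels, 2.76 and 3.15 CPM, were the lowest of the 12 libraries and rested on 17 and 6 UMIs. Spleen values were 12.6 and 4.27 CPM in control, against 18.2 and 10.5 CPM in KO, and colon lamina propria values 9.94 and 6.88 CPM in control, against 12.1 and 16.2 CPM in KO. Spleen and colon lamina propria could therefore not be ranked. Epithelium exceeded spleen by 1.62 ± 0.30 on the log2 scale (edgeR, adjusted p = 0.0160), a call lost without the spleen control library (0.0564) and in all cells regardless of CD3 (0.0895). Beside colon lamina propria the epithelial excess was 0.82 ± 0.29 (adjusted p = 0.103, and 0.0464 in a fit of all 12 libraries), and small intestine stood at a log2 fold change of -1.79 ± 0.40 from it without passing (adjusted p = 0.219, DESeq2 0.0450).

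Pdcd1 reached 73.5 CPM (control) and 75.8 CPM (KO) in the epithelium. Spleen followed at 37.3 and 29.9 CPM in control, against 36.5 and 60.7 CPM in KO, and colon lamina propria at 32.5 and 27.1 CPM in control, against 44.9 and 45.6 CPM in KO. Small intestine was lowest among control libraries at 20.1 CPM and among KO libraries at 27.9 CPM. The epithelium lay above every other library, and spleen and colon lamina propria overlapped. Epithelial Pdcd1 was 0.92 ± 0.23 above colon lamina propria (edgeR, adjusted p = 0.0447). This call ended in 5 of 8 fits that left out 1 library: colon lamina propria control (adjusted p = 0.262) or KO (0.160), small intestine control (0.102) or KO (0.0975), and epithelial control, without which the difference was 0.49 (0.222). It also ended in all cells regardless of CD3 (0.256) and at a CD3 minimum of 1 UMI (0.0753). Against spleen, epithelial Pdcd1 was 0.79 ± 0.23 higher and did not pass (0.0931), although it did in a fit of all 12 libraries (0.0445) and without the epithelial KO library (0.0137).

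Tigit followed a different pattern. Colon lamina propria held 28.0 and 15.5 CPM in control, against 23.3 and 17.6 CPM in KO, and small intestine 21.1 and 16.8 CPM. Spleen held 4.05 and 1.59 CPM in control, against 7.51 and 3.03 CPM in KO, and the epithelium 3.72 and 3.25 CPM. All 6 lamina propria libraries were above all 6 others, and the share of all genes that separate the libraries in this way is not given here. Colon lamina propria exceeded spleen by 2.78 ± 0.47 on the log2 scale (edgeR, adjusted p = 0.00551), small intestine exceeded spleen by 3.19 ± 0.31 (adjusted p = 0.000303), and epithelium was below colon lamina propria, with a log2 fold change of -2.42 ± 0.28 (adjusted p = 0.00180). Each of these calls held when any 1 library was left out, with adjusted p up to 0.0243.

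The sum of 5 genes listed as regulatory T cell markers (Foxp3, Il2ra, Ikzf2, Ctla4 and Izumo1r, 5 of 5 measured) was higher in the tissues with high Tigit. It was 539 to 912 CPM in colon lamina propria, 457 and 731 CPM in small intestine, 111 to 133 CPM in spleen and 146 and 150 CPM in epithelium. Shares of cells with a Foxp3 UMI, which were not thinned and depend on depth, followed that order only in part. In control and KO of replicate 2 they were 0.986% and 0.460% in colon lamina propria and 0.0483% and 0.246% in small intestine. Spleen there held 0.0546% and 0.0555%, and epithelium 0.301% and 0.0607%. Replicate 1, at deeper medians of 3938 to 5690 UMIs, had 0.528% and 1.18% in spleen and 0.868% and 0.621% in colon lamina propria. The part of regulatory T cells in the sum was not tested. Tigit itself was at 15.6 CPM in cells with a Foxp3 UMI and at 11.3 CPM in the others. Without cells holding a Foxp3, Cd8a or Cd8b1 UMI, Tigit in colon lamina propria was 2.78 above spleen (edgeR, adjusted p = 0.00540). The filter kept 97.7% of CD3-positive cells over all libraries, and a regulatory or CD8 T cell with none of these UMIs stayed in. The part of such cells in the tissue differences was therefore not tested by it. Epithelial libraries held more CD8 marker RNA (14.7 and 21.9 CPM) than the spleen of the same replicate (7.85 and 3.11 CPM), and without the same cells Lag3 was 3.05 and Havcr2 1.60 above spleen (adjusted p = 0.0215 and 0.0197). Epithelial marker RNA in CD3-positive cells ran from 1.36 to 1004 CPM, highest in the epithelial KO library, and its part in these results was not tested.

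Tox and Tox2 showed no tissue difference that passed the test. Over spleen, colon lamina propria, small intestine and epithelium, the control libraries of replicate 2 held 13.0, 9.87, 12.2 and 13.3 CPM of Tox, and those of KO 45.6, 22.6, 44.7 and 31.8 CPM. Replicate 1 held 22.7 and 14.6 CPM in control spleen and colon and 20.3 and 16.002 CPM in KO. The log2 differences of Tox between tissues ran from -0.41 ± 0.33 (colon lamina propria against spleen, adjusted p = 0.377) to 0.63 ± 0.22 (small intestine against colon lamina propria, adjusted p = 0.475). Tox2 was at 16.4, 13.4, 21.8 and 11.9 CPM in the same 4 control libraries and at 27.3, 14.8, 27.3 and 18.8 CPM in KO, and at 9.91 and 7.24 CPM (control) and 14.4 and 11.4 CPM (KO) in replicate 1. Its largest difference was 0.76 ± 0.19 between small intestine and colon lamina propria (adjusted p = 0.266).

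Counted over the 6 genes, 1 of 6 passed between colon lamina propria and spleen, where 29.7% of the 10976 tested genes passed (16.6% higher, 13.1% lower). Between small intestine and spleen 1 of 6 passed (23.2% of 11155 genes, 13.4% higher and 9.78% lower), between epithelium and spleen 2 of 6 (7.01%, 4.34% higher and 2.67% lower), between epithelium and colon lamina propria 2 of 6, 1 each way (12.2%, 4.63% higher and 7.57% lower), and between small intestine and colon lamina propria 0 of 6 (0.00896%). In the last comparison 982 genes had an unadjusted p under 0.05 in edgeR, 1 passed adjustment, and DESeq2 called 92. Between small intestine and spleen, Pdcd1 (-0.73 ± 0.26, adjusted p = 0.0824) passed without the spleen control library (0.0363) or either epithelial library (0.0234 and 0.0243), and Lag3 (0.92 ± 0.41, 0.169) without either epithelial library (0.0037 and 0.0035). With 6 genes, counts of 1 or 2 give no ground to call passing particular to them.

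**Figure D2:**
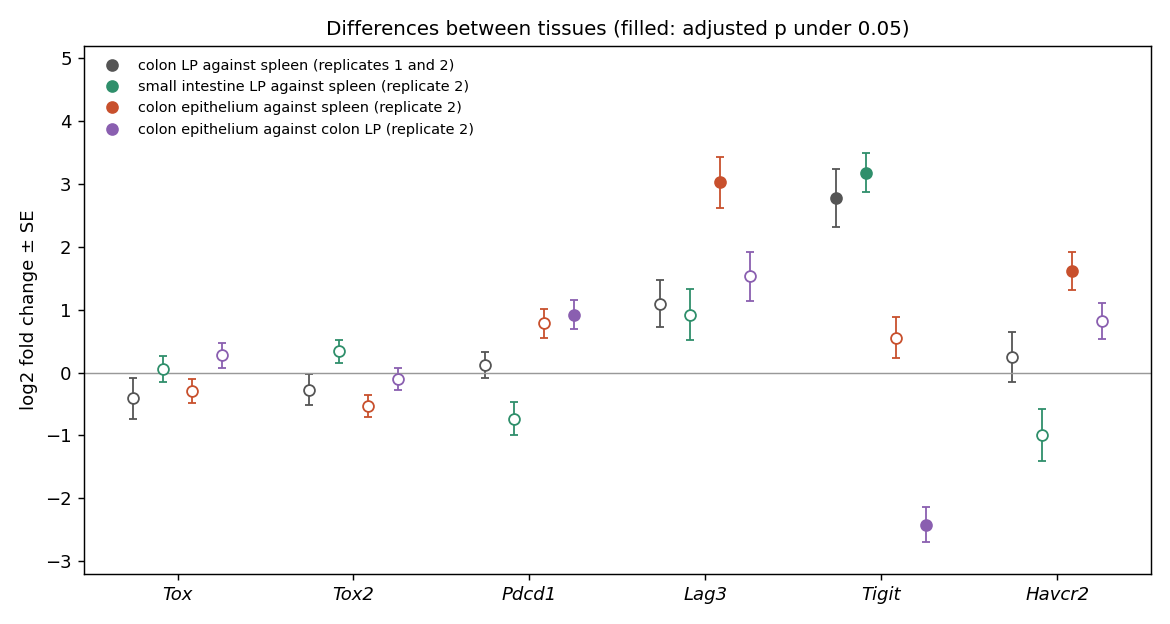
Log2 fold change between tissues with its standard error for each of the 6 genes, from the edgeR fits (vertical axis), with 4 comparisons in colours. Filled points passed an adjusted p of 0.05. Tigit was 2.78 and 3.19 higher in colon and small intestinal lamina propria than in spleen, whereas Lag3 and Havcr2 passed in epithelium against spleen.

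Genes known to accompany these receptors were followed as lists, chosen with earlier results of these data known. Of 17 tested exhaustion-associated transcription factors, 12 were higher and 0 lower in colon lamina propria than in spleen (median log2 difference 1.04, against -0.00139 over all genes tested, of which 16.6% were higher and 13.1% lower). They included Nr4a1 and Nr4a2, early antigen receptor response factors (5.37 ± 0.31 and 6.21 ± 0.36), Irf4 (3.32 ± 0.19) and Bhlhe40 (2.81 ± 0.22). Small intestine gave 13 of 17 higher and 0 lower against spleen (all genes 13.4% and 9.78%), and epithelium 5 higher and 1 lower (median 0.44, all genes 4.34% and 2.67%). Relative to colon lamina propria, the epithelium had 1 higher and 7 lower (median -1.01, all genes 4.63% and 7.57%), among them Irf4 (-3.05 ± 0.20), Bhlhe40 (-2.26 ± 0.30), Ikzf2 (-1.69 ± 0.15) and Eomes (-1.96 ± 0.26).

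Among progenitor and memory genes, more were lower than higher in colon and epithelium relative to spleen. In colon lamina propria 8 of 12 were lower and 1 higher (all genes 13.1% and 16.6%), with Klf2 at -1.78 ± 0.21 and Id3 at -2.64 ± 0.17, while Bcl6 was 3.05 ± 0.50 higher. In epithelium against spleen 6 of 12 were lower and 0 higher (all genes 2.67% and 4.34%), with Slamf6 at -2.16 ± 0.31 and Id3 at -1.54 ± 0.17. Of activation and effector genes 10 of 14 were higher and 0 lower in colon lamina propria than in spleen (all genes 16.6% and 13.1%), among them Tnfrsf4 (3.87 ± 0.27), Icos (3.02 ± 0.24), Cd69 (2.48 ± 0.26) and Gzmb (1.89 ± 0.16). Each of these single-gene values passed at an adjusted p under 0.05 in edgeR over all genes.

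The other co-inhibitory receptors, the ligands and the signalling partners had few calls, and their counts in colon lamina propria against spleen are to be read beside the 16.6% of all genes that were higher and the 13.1% that were lower. Of 13 other co-inhibitory receptors 3 were higher, among them Ctla4 (5.52 ± 0.28) and Nt5e (2.08 ± 0.31), and 3 were lower, among them Klrg1 (-1.35 ± 0.35) and Lair1 (-1.13 ± 0.20). Between epithelium and colon lamina propria 2 passed, Ctla4 at -2.71 ± 0.30 and Cd160 at 2.28 ± 0.34. Among ligands of such receptors counted in the T cells themselves, Cd274 (PD-L1) and Pdcd1lg2 (PD-L2) were 2.21 ± 0.28 and 2.35 ± 0.25 higher in colon lamina propria than in spleen, 2 of 8 tested, with 0 lower. The signalling and shedding partners gave 2 higher and 2 lower of 12: Inpp5d (0.81 ± 0.25) and Ptpn11 (0.64 ± 0.15) against Ptpn6 (-0.98 ± 0.21) and Adam17 (-0.49 ± 0.15), the last a protease that sheds LAG-3.

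The knockout comparison asked whether loss of the IL-23 receptor in the transferred cells altered these genes. Neither replicated tissue gave a call. In spleen 0 of 6 passed, as did 0% of all 10976 genes, although 128 genes had an unadjusted p under 0.05 in edgeR and DESeq2 called 3. All 6 fold changes were above 0 there (median 0.69, against 0.02 over all genes), from 0.41 ± 0.53 for Lag3 to 0.85 ± 0.46 for Tox. They moved with single libraries: with 1 left out, Tox ran from 0.19 to 1.35, Tox2 from 0.15 to 0.997, Pdcd1 from 0.13 to 0.78, Lag3 from -0.21 to 0.92, Tigit from 0.072 to 1.66 and Havcr2 from 0.097 to 1.73. In colon lamina propria 0 of 6 and 0% of all genes passed (123 at an unadjusted p under 0.05, 0 by DESeq2), with Lag3 at 1.13 ± 0.53, Pdcd1 at 0.62 ± 0.29 and Tigit at -0.07 ± 0.58. Lag3 there ran from 0.44 to 1.61 with 1 library left out, and it passed without a filter on low counts (adjusted p = 0.00969). The KO effect did not pass as different between the 2 tissues for any of the 6, and 0% of genes passed (114 at an unadjusted p under 0.05, DESeq2 2). Its largest absolute value was for Tigit (-0.90 ± 0.91, unadjusted p = 0.351).

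Over all 12 libraries, with tissue as a term, the KO log2 differences were 1.01 ± 0.26 for Tox, 0.66 ± 0.31 for Lag3, 0.59 ± 0.28 for Havcr2, 0.51 ± 0.18 for Tox2, 0.45 ± 0.15 for Pdcd1 and 0.11 ± 0.33 for Tigit. None passed (adjusted p of 1 each), nor did any gene (0% of 11305, with 525 at an unadjusted p under 0.05, DESeq2 3). Tox had an unadjusted p of 0.00280. A control and a KO library of the same tissue and replicate made 6 pairs. Tox2 and Havcr2 were higher in KO in 6 of 6 pairs, Tox and Pdcd1 in 5, Lag3 in 4 and Tigit in 3. With cells thinned to 1500 UMIs each, Tox2 was higher in 5 and Pdcd1 in 4. In all cells regardless of CD3, Havcr2 was higher in 5 and Tox in 6. The other counts were the same in both settings. The small intestine pair of Havcr2 rested on 17 and 6 UMIs (ratio 1.14, exact interval 0.369 to 3.04). The share of all genes higher in KO in 6 of 6 pairs is not given here.

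**Figure D3:**
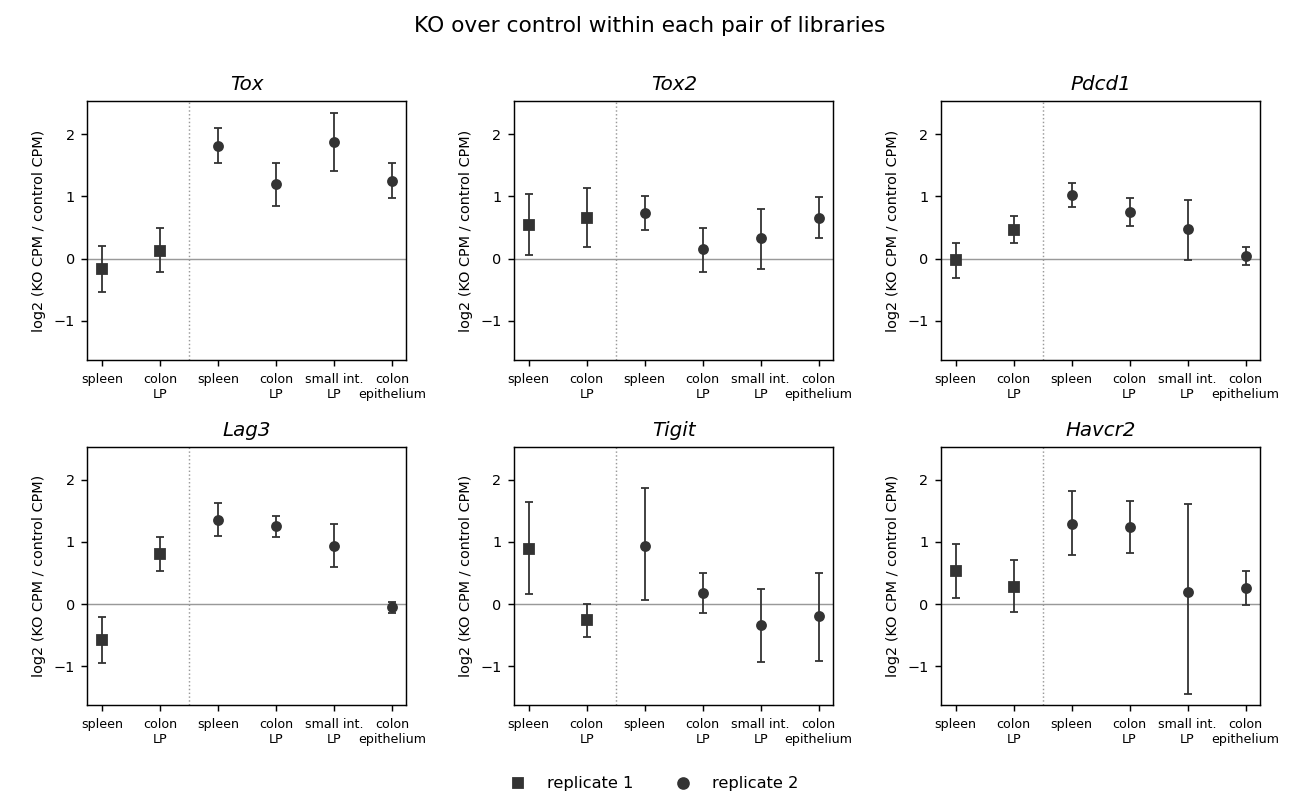
Log2 ratio of KO to control CPM in each pair of libraries (vertical axis), with its exact conditional 95% interval, which covers counting error only. Squares left of the dotted line are replicate 1 and circles replicate 2. The Tox ratios of replicate 1 straddle 0 and those of replicate 2 all lie above 1.

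For Tox the pairs divided by batch. In Batch 1 the ratio of KO to control was 0.895 (exact 95% interval 0.692 to 1.15) in spleen and 1.09 (0.860 to 1.40) in colon lamina propria. In Batch 2 it was 3.50 (2.90 to 4.27) in spleen, 2.28 (1.80 to 2.91) in colon lamina propria, 3.67 (2.66 to 5.07) in small intestine and 2.39 (1.96 to 2.92) in epithelium. All 4 KO libraries of Batch 2 were above all 4 of their controls, and in Batch 1, with only 2 pairs, the genotypes overlapped. The share of all genes separated in this way in Batch 2 is not given here. A fit of the 8 Batch 2 libraries, made after these values were seen, gave Tox a KO difference of 1.52 ± 0.15 on the log2 scale (edgeR, adjusted p = 0.00824), the 1 gene of the 6 that passed where 0.654% of 11155 genes did (46 higher, 0.412%, and 27 lower, 0.242%). The call did not hold without the small intestine control library (adjusted p = 0.0750) or KO library (0.0843), nor in all cells regardless of CD3 (0.0753), while the fold change stayed between 1.41 and 1.64. The number of genes called went to 0 and 1 without the small intestine control and KO libraries, to 432 and 360 without the spleen control and KO libraries, and to 22 without either colon lamina propria library.

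The same fit in Batch 1 gave Tox -0.04 ± 0.20 (adjusted p of 1), with 1 gene called, Cd7 (0.00972% of 10287 genes). The difference between the 2 batches in the KO effect on Tox, tested over spleen and colon lamina propria, was 1.59 ± 0.32 with an unadjusted p of 0.000838, and it did not pass adjustment (0.606), as 0% of genes did (373 at an unadjusted p under 0.05, DESeq2 12). In Batch 2, Eif2s3y was also lower in KO (52.4 to 72.5 CPM) than in control (90.7 to 116 CPM), and its relation to Tox was not tested. Batch and replicate number are 1 split and cannot be told apart here.

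The other members did not pass in Batch 2. Their KO differences were 0.86 ± 0.28 for Lag3 (adjusted p = 0.27, DESeq2 0.0263), 0.82 ± 0.23 for Havcr2 (0.164), 0.58 ± 0.17 for Pdcd1 (0.199), 0.48 ± 0.13 for Tox2 (0.140) and 0.12 ± 0.21 for Tigit (0.841). Lag3 passed when either epithelial library was left out and Pdcd1 also passed in 2 of the 8 such fits (lowest adjusted p 0.00335 and 0.0390). In the epithelium itself, which has no replicate, the KO to control ratio was 0.967 (0.909 to 1.03) for Lag3 and 1.03 (0.933 to 1.14) for Pdcd1. Spleen of Batch 2 gave ratios of 2.56 (2.14 to 3.09) for Lag3, 2.03 (1.78 to 2.32) for Pdcd1 and 2.45 (1.73 to 3.53) for Havcr2. For Lag3 the spleen of Batch 1 went the opposite way, at 0.672 (0.518 to 0.865).

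Of the companion lists, the KO comparison of Batch 2 called 1 gene of 17 transcription factors, Eomes (1.39 ± 0.17, adjusted p = 0.0201), a T-box factor of effector and exhausted T cells, and 0 genes of the 5 other lists. Il10, an anti-inflammatory cytokine gene, was at 1.99 ± 0.37 (adjusted p = 0.0580) and Cd160 at -1.54 ± 0.24 (0.0697). Cd274 and Pdcd1lg2 were at 0.55 ± 0.13 and 0.46 ± 0.11 (0.108 and 0.103). List medians lay between 0.02 and 0.21, against 0.70 for the 6 members and 0.00485 over all genes tested. The proliferation markers, 5 of 5 measured, did not keep 1 direction between genotypes: their sum was 502 CPM in control spleen and 943 CPM in KO spleen of Batch 2, and, in the same order, 368 and 209 in colon lamina propria, 256 and 107 in small intestine and 408 and 275 in epithelium.

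Between batches, over spleen and colon lamina propria, Tigit was lower in Batch 2 with a log2 fold change of -1.07 ± 0.19 (edgeR, adjusted p = 0.0218), the 1 gene of the 6 that passed where 3.24% of 10976 genes did (1.14% higher, 2.1% lower). It lost the call without the spleen KO library of either batch (adjusted p = 0.0688 for Batch 1 and 0.0605 for Batch 2), without the colon control library of either (0.108 and 0.0979), and with cells thinned to equal depth (0.0748). Lag3 passed as higher in Batch 2 without the spleen control library of either batch (adjusted p = 0.0133 each). Havcr2 was at -0.74 ± 0.29 (0.207) and Tox2 at 0.56 ± 0.16 (0.108).

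Shares of cells with a UMI depend on depth, so cells of 1500 UMIs or more were thinned to 1500 UMIs each, which left out 2671 cells (0 to 626 per library). In thinned cells Lag3 was found in 18.4% of control and 19.4% of KO epithelial cells, against 1.44% to 9.30% elsewhere, and Pdcd1 in 10.3% and 10.6% against 2.95% to 8.38%. Tigit was found in 2.59% to 4.13% of lamina propria cells and 0.231% to 1.05% of the others. Tox was found in 6.48%, 3.06%, 6.10% and 4.83% of KO cells of Batch 2 (spleen, colon and small intestinal lamina propria, epithelium) and in 1.75%, 1.49%, 2.28% and 2.17% of their controls. In Batch 1 the shares were 3.79% and 2.39% (control spleen and colon) and 3.15% and 2.74% (KO). Without thinning the Tox shares ran from 2.96% to 12.3%, Lag3 from 3.58% to 25.7%, Pdcd1 from 4.93% to 17.3% and Tigit from 0.437% to 12.9%, at median depths of 2273 to 5690 UMIs.

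As a check of free RNA, 60 cells with epithelial UMIs and no CD3 UMI (median 2424.5 UMIs) were examined. Tox had a UMI in 1 of 60 (1.67%, exact 95% upper bound 8.94%) and each of the other 5 genes in 0 of 60. A count of 0 allows a share of up to 5% where 3 cells are taken as its limit, and 5.96% by the exact 95% bound. These bounds cover counting error only. At similar depth, without thinning, the T cells of the epithelium held Lag3 in 25.7% and 25.3% and Pdcd1 in 16.5% and 16.9% of cells, above either bound. Shares under the bounds could not be told from background by this check. Nor could shares above them where depth differed. The 60 cells were pooled over libraries, and the Batch 1 libraries were deeper (medians of 3938 to 5690 UMIs). Havcr2 in spleen of Batch 1, for example, was found in 6.16% (control) and 8.38% (KO) of cells. With cells thinned to 1000 UMIs these shares were 0.968% and 0.916%. Without thinning, shares lay under 5% in 9 of 12 libraries for Havcr2, 8 for Tigit (all but 4 lamina propria libraries), 7 for Tox2 and 1 each for Lag3 and Pdcd1. For Tox, shares lay under 8.94% in 9 of 12. Of the KO libraries of Batch 2 the spleen lay above that Tox bound (12.3%), while small intestine (8.36%), epithelium (7.89%) and colon lamina propria (5%) did not. At the exact bound of 5.96% more shares fell under. They were Tigit in control colon lamina propria of replicate 2 (5.14%) and control small intestine (5.94%), and Havcr2 in KO epithelium (5.67%). Tox2 did so in small intestine (5.41% and 5.29%) and control spleen of replicate 1 (5.02%), Lag3 in KO spleen of replicate 1 (5.89%) and Pdcd1 in KO small intestine (5.66%).

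Whether the genes met in the same cells was asked within libraries, by comparing thinned cells with and without a UMI of 1 member, with library as a block. Tox, Pdcd1 and Lag3 were each higher in cells with a UMI of another of the 3, and Havcr2 went with Lag3 (plot of members in the same cells). Cells with a Lag3 UMI had 2.47 ± 0.19 more Havcr2 on the log2 scale (higher in 9 of 11 libraries), 1.61 ± 0.17 more Tox (10 of 11) and 1.11 ± 0.12 more Pdcd1 (11 of 11), each with an adjusted p of at most 1.9e-12. Tigit (0.58 ± 0.27, adjusted p = 0.222) and Tox2 (0.56 ± 0.23, 0.129, but 0.0032 with cells thinned to 1000 UMIs) did not pass. Thus 3 of 5 other members passed where 7.4% of 6361 genes did (2.5% higher, 4.9% lower).

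Cells with a Tox UMI had more Lag3 (1.62 ± 0.18, 11 of 12 libraries), Pdcd1 (1.25 ± 0.15, 12 of 12) and Tox2 (1.10 ± 0.26, 10 of 12, adjusted p = 0.00203, and 0.0954 with cells thinned to 1000 UMIs), 3 of the 3 members that had counts enough to be tested (3.12% of 5455 genes passed, 0.935% higher and 2.18% lower). Pdcd1-positive cells had more Tox (1.17 ± 0.16) and Lag3 (0.996 ± 0.10), each in 12 of 12 libraries, while Tox2 did not pass (0.90 ± 0.29, adjusted p = 0.124), although it did in unthinned cells (0.00024) and without a filter on low counts (0.0086). That is 2 of 3 tested, with 2.91% of 5742 genes passing (0.975% higher, 1.93% lower). The first set and its reverse rest on the same doubly positive cells and are not independent.

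Cells with a Havcr2 UMI, compared in 6 libraries, had 2.37 ± 0.15 more Lag3 (6 of 6, adjusted p = 5.4e-50) and no other member passed (Pdcd1 did in unthinned cells, adjusted p = 0.00030), 1 of 5 against 2.35% of 8011 genes (0.449% higher, 1.9% lower). Tox2-positive cells, in 8 libraries, had more Pdcd1 (0.89 ± 0.26, 6 of 8, adjusted p = 0.0392) and Lag3 (0.67 ± 0.17, adjusted p = 0.00537). Lag3 was higher in only 4 of those 8 libraries, and neither call held when cells were thinned to 1000 UMIs or without a filter on low counts. In unthinned cells that of Lag3 was lost as well (0.104), and Tox passed (1.2e-08). That made 2 of 5 members beside 3.56% of 7441 genes (0.833% higher, 2.73% lower). For Tigit-positive cells, in 6 libraries, 0 of 4 members passed (0.293% of 6485 genes did, 0.0617% higher and 0.231% lower). Lag3 was nearest at 0.72 ± 0.22 (adjusted p = 0.185, and 0.0369 without cells holding a Mki67 or Top2a UMI).

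**Figure D4:**
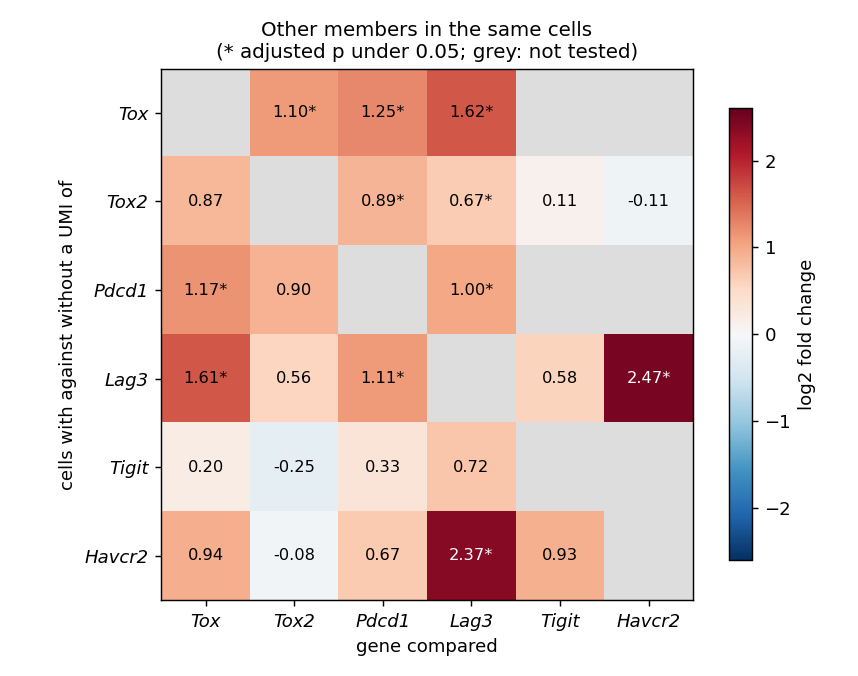
Log2 fold change of each gene (columns) between CD3-positive cells with and without a UMI of the gene in the row, each cell thinned to 1500 UMIs. Stars mark an adjusted p under 0.05 and grey squares were not tested. Lag3 and Havcr2 show the largest values, 2.47 and 2.37, and no star stands in the Tigit row.

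The genes outside the 6 that differed in these splits were partly shared. Cells with a Lag3 UMI had more Ccl3 and Ccl4, chemokines of activated T cells (2.88 ± 0.41 and 2.46 ± 0.40), Penk (2.55 ± 0.11) and Rgs16 (2.40 ± 0.18), and less Ly6c2 (-2.01 ± 0.17) and Itgb1 (-1.65 ± 0.21). Cells with Pdcd1 had more Penk (1.98 ± 0.25, higher in 10 of 12 libraries), Ccl3 (1.89 ± 0.34, 8 of 12), Rgs16 (1.83 ± 0.18, 8 of 12) and Ccl1 (1.503 ± 0.22, 10 of 12). Tox-positive cells had more Eomes (1.98 ± 0.30, higher in 12 of 12 libraries), Gzmk, a granzyme (1.49 ± 0.11, 12 of 12), Penk (1.65 ± 0.16, 10 of 12) and Rgs16 (1.62 ± 0.27, 9 of 12). They had less of the interferon-induced Ifitm1, Ifitm2 and Ifitm3 (-1.83 ± 0.32, -1.37 ± 0.16 and -1.69 ± 0.12).

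Tox2-positive cells had more Tff1 (2.34 ± 0.28, higher in 6 of 8 libraries), Nav2 (2.09 ± 0.40, 6 of 8) and Pkp4 (2.05 ± 0.37, 7 of 8). Their lowest genes included Ifitm1 (-3.57 ± 0.22, lower in 8 of 8 libraries) and Ly6c2 (-3.35 ± 0.32). Havcr2-positive cells had more Serpine2 (2.93 ± 0.37) and Irf8 (2.21 ± 0.26), each higher in 6 of 6 libraries. Siglece (2.20 ± 0.52) was higher in 4 of 6 and the cytokine gene Il21 (2.12 ± 0.48) in only 3 of 6. Median Il21 was 6.18 CPM in cells with and 4.49 CPM in cells without a Havcr2 UMI. Il22 (-3.07 ± 0.48) and Id3 (-2.94 ± 0.76) were lower, each with a median of 0 CPM in cells with a Havcr2 UMI. Their medians in cells without it were 50.8 and 14.4 CPM, so the sizes of these differences rest on values near the floor. In Tigit-positive cells 19 genes passed, with more Ramp3 (0.49 ± 0.11), Tnfrsf4 (0.42 ± 0.08) and Vps37b (0.37 ± 0.08) and less Il22 (-1.44 ± 0.27) and Ly6c2 (-1.85 ± 0.43). All of these passed an adjusted p of 0.05 in edgeR.

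Progenitor and memory genes that passed were all lower in Lag3-, Havcr2- and Pdcd1-positive cells (0 higher and 3 of 8 lower for Pdcd1) and went both ways with Tox and Tox2. With Lag3, 6 of 8 tested were lower and 0 higher (median -0.69, against -0.04 over all genes), among them Il7r (-0.71 ± 0.09) and Tcf7 (-0.67 ± 0.12), which encodes the progenitor factor TCF1. With Havcr2, 5 of 9 were lower and 0 higher, with Tcf7 at -1.98 ± 0.31. With Tox2, Tcf7 (0.70 ± 0.14) and Id3 (1.43 ± 0.23) were higher, 3 of 9 in all, and 2 lower, Il7r (-1.01 ± 0.13) and Klf2 (-0.57 ± 0.09). With Tox, 2 of 9 were higher, including Slamf6 (0.71 ± 0.13), and 3 lower, including Klf2 (-0.52 ± 0.07). Sh2d1a, which encodes the signalling adaptor SAP, was higher with Tox (0.65 ± 0.10), Tox2 (0.93 ± 0.11) and Pdcd1 (0.41 ± 0.09).

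Of the exhaustion-associated transcription factors 5 of 15 passed as higher in the Tox split (0.935% of all genes did), 5 of 16 in the Pdcd1 split (0.975%) and 4 of 15 in the Lag3 split (2.5%), and 0 passed as lower in any of the 3. The rest did not pass, with 5, 3 and 2 of those tested below 0. Ikzf2 was higher with each of the 3 (1.11 ± 0.19, 0.81 ± 0.15 and 1.14 ± 0.15), as was Eomes (1.98 ± 0.30, 1.14 ± 0.20 and 1.53 ± 0.20). Tox2-positive cells had 2 higher (Ikzf2 1.24 ± 0.23, Batf 0.66 ± 0.12) and 2 lower (Tbx21, the Th1 factor T-bet, -1.17 ± 0.27, and Bhlhe40 -0.28 ± 0.09). Ifng was lower there too (-0.66 ± 0.14). Tnfrsf9, which encodes the costimulatory receptor 4-1BB, was higher with Lag3 (1.83 ± 0.25), Havcr2 (1.66 ± 0.19) and Pdcd1 (0.77 ± 0.12).

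Counted per cell, thinned cells with UMIs of both Pdcd1 and Lag3 were 0.145% to 3.34% of a library, on 2 to 111 cells. In 12 of 12 libraries this was above the product of the 2 single shares. The excess was small in control colon lamina propria of replicate 1 (0.145% beside 0.105%, 2 cells) and control small intestine (0.167% beside 0.130%, 3 cells). The share of other gene pairs above such a product is not given here. In control epithelium the share was 3.34% (111 of 3325 cells) beside a product of 1.901%, and in KO epithelium 2.77% (82 of 2960) beside 2.06%. Cells with both Lag3 and Havcr2 were 0% to 1.55% and exceeded the product in 9 of 12 libraries, with 0 such cells in the other 3. Cells with UMIs of 2 or more of the 4 receptors made up 4.75% and 4.46% of control and KO epithelium and 0.262% to 2.09% of the other libraries. In Batch 2 they were more frequent in KO than in control in spleen (1.08% and 0.329%), colon lamina propria (2.09% and 0.712%) and small intestine (1.10% and 0.501%), on 7 to 56 cells each. In Batch 1 the order was opposite in spleen (KO 0.262%, control 0.352%, on 2 and 4 cells) and the same in colon lamina propria (1.64% and 0.870%).

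**Figure D5:**
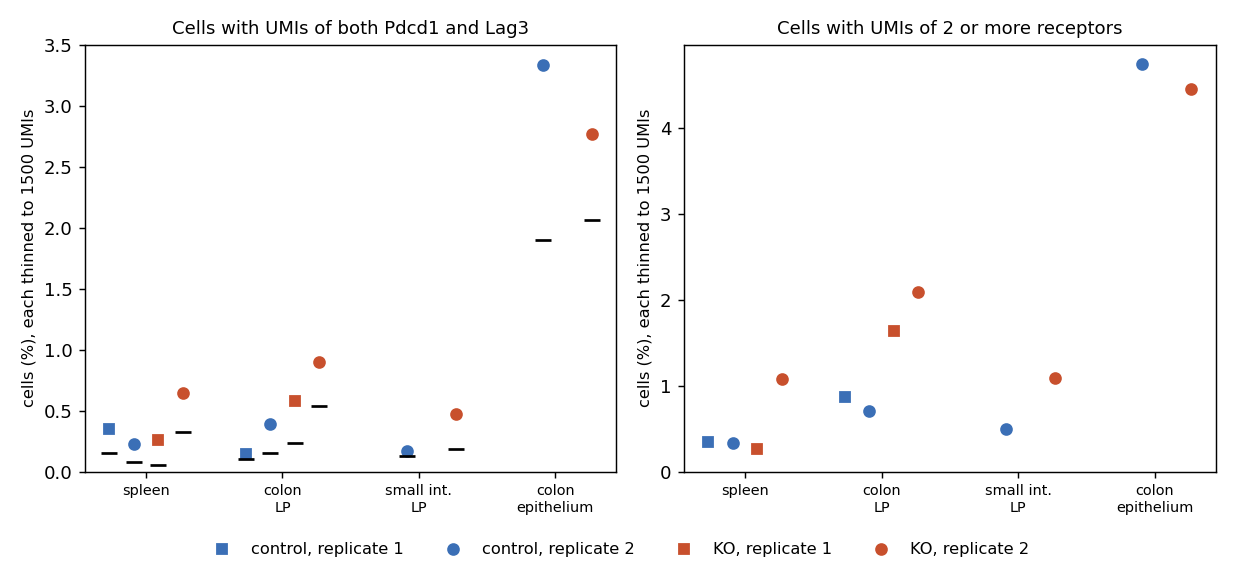
Share of CD3-positive cells, each thinned to 1500 UMIs, with UMIs of both Pdcd1 and Lag3 (left; black bars give the product of the 2 single shares) and with UMIs of 2 or more of the 4 receptors (right), by tissue and library. Colours and shapes are as for the levels by library. Both epithelial libraries lie above all others in both panels, at 3.34% and 2.77% and at 4.75% and 4.46%.

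Across the 12 libraries, the genes whose log2(CPM + 1) followed each member most closely, among 6763 genes with a mean of 10 CPM or more, were the following, as descriptions over libraries that share tissues and batches. Lag3 ran with Cd3g (Pearson r = 0.95), which took part in choosing the cells, and with Ccl3 and Ccl4 (0.91 and 0.90). Pdcd1 ran with Irf8 (0.87), Krtcap2 (0.86) and Id2 (0.85), and Havcr2 with Csf1 (0.96), Ptms (0.91) and S100a11 (0.90). Tox ran with Ifih1 (0.92), Ptpn4 (0.91) and Azi2 (0.89), Tox2 with Med1 (0.94), Hmgn1 (0.91) and Spata5 (0.85), and Tigit with Birc2 (0.97), Apaf1 (0.96) and Eif2s2 (0.96). Among the members themselves r was highest for Pdcd1 and Havcr2 (0.82), followed by Pdcd1 and Lag3 (0.68), and lowest for Pdcd1 and Tigit (-0.50).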

How the data were processed

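CD3-positive cells of 12 single-cell libraries were analysed. The authors' deposited matrix held counts, whole UMIs per gene and cell. Per the labels, libraries were made with the 10x Chromium 3′ version 2 kit. Cell Ranger 2.0.2 and mm10 are named in the submitters' processing notes, and other steps are not given in the sources used here. Groups came from sample titles. The 6 genes, the lists and the rule for named genes (list members with the smallest p, up to 4 per list and comparison; for the splits, the 4 largest fold changes each way at a mean of 10 CPM or more) were chosen with earlier results of these data known, and the comparisons within a replicate number were added after the members' values were seen. Likeness took the 3 highest correlations per member. No doublet caller was run. The values of 1 list gene are not reported here.

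UMIs were summed per gene and library (levels are CPM of that sum), filtered with filterByExpr, scaled by TMM (factors 0.844 to 1.13) and tested with the robust quasi-likelihood test of edgeR 4.0.16 (R 4.3.3), Benjamini-Hochberg adjusted over all genes, threshold 0.05. Standard errors are the log2 fold change over the square root of F. Spleen and colon lamina propria were fitted together (8 libraries); comparisons with small intestine or epithelium used the 8 libraries of replicate 2 with genotype as a term. Splits used libraries with 20 or more cells in both classes, and left the splitting gene out. DESeq2 1.42.0, other cell, depth and filter settings and leaving out each library were alternatives. Scripts were tested on simulated data. Deviations of same-numbered libraries from their group means correlated at 0.35 to 0.61 over 6800 genes, which was taken as pairing them by number. Total counts per library are given above as a range, and intervals at 95% cover counting error only.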

Additional observations from a re-analysis of the deposited data

Results flagged for a closer look

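Cells below the CD3 minimum entered none of the comparisons (3140 cells, 7925180 UMIs), and each of the 6 genes was counted in them above the 0.379 CPM that a count of 0 allows. Tox stood at 65.4 CPM (518 UMIs), against 21.3 CPM in CD3-positive cells, Tox2 at 31.2 against 15.8 CPM, and Pdcd1 at 86.4 against 46.0 CPM. Lag3 (46.2 against 70.4 CPM), Tigit (7.19 against 11.4 CPM) and Havcr2 (2.52 against 12.2 CPM) were lower there. The values were uneven between libraries: Pdcd1 was at 281 CPM in colon lamina propria KO replicate 1 and 137 CPM in the small intestine KO library, and Tox at 124 CPM in spleen KO replicate 1 and 109 CPM in the small intestine KO library. What these cells are was not tested.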

How the results depend on the processing

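The calls of Tigit between tissues kept their direction and side of the threshold under every alternative run. Of the members' values in tested comparisons, 593 under other settings and 532 with 1 library left out kept both. Numbers of genes called moved as follows, and unless stated the cause was not tested. Without a filter on low counts, the KO comparison gave 70 in spleen, 83 in colon lamina propria, 68 for their difference, 6 over 12 libraries, 31 in replicate 1, 143 in replicate 2 and 7 for the difference of replicates. The same setting gave 631 between replicates, 7 between small intestine and colon lamina propria, and 705, 574, 346, 764 and 94 in the splits by Tox, Tox2, Pdcd1, Lag3 and Tigit. DESeq2 gave 3 (spleen), 2 (difference of tissues), 3 (12 libraries), 262 (replicate 2), 12 (difference of replicates), 625 (between replicates) and 92 (small intestine against colon). DESeq2 size factors gave 3 in replicate 1. All cells, regardless of CD3, gave 9 in replicate 1, 0 in replicate 2, 733 for epithelium against colon lamina propria and 319 for epithelium against spleen. A CD3 minimum of 1 UMI gave 0, 13 and, for small intestine against colon, 4. Thinning gave 1 over 12 libraries, 0 and 155 in replicates 1 and 2, and 23 for small intestine against colon, where a fit of all 12 libraries gave 0. Without Foxp3 or Cd8 cells the difference of replicates gave 2. Unthinned cells gave 571, 1504, 1177, 1125, 78 and 1311 in the splits by Tox, Tox2, Pdcd1, Lag3, Tigit and Havcr2, and thinning to 1000 UMIs gave 166 for Tox2. With 1 library left out, counts ran from 0 to 1 for KO in spleen, in colon and for their difference, 0 to 432 in replicate 2, 0 to 15 for the difference of replicates, 112 to 474 between replicates, 1793 to 3596 for colon against spleen, 1 to 55 for small intestine against colon, 224 to 1933 for epithelium against colon, 1097 to 2831 for small intestine against spleen and 371 to 1155 for epithelium against spleen.

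In the pairs without replicate, which were not tested, the KO log2 ratio changed sign in small intestine for Havcr2 (-0.22 in all cells) and Tox2 (-0.092 thinned). In epithelium it did so for Pdcd1 (-0.028 in all cells, -0.014 thinned). In tested comparisons, values that changed sign did not pass in either setting. They were the KO difference of Tigit in colon (0.10 thinned) and of Tox in replicate 1 (0.34 in all cells, 0.19 at 1 CD3 UMI), the tissue difference of the KO effect on Havcr2 (-0.029 in all cells) and Pdcd1 between small intestine and colon (0.019 in all cells). In the splits they were Havcr2 and Tigit by Tox2 (0.35 unthinned, -0.071 unfiltered) and Tox2 by Tigit (0.38 unthinned) and by Havcr2 (0.29 unthinned, 0.020 without Mki67 or Top2a UMI). With 1 library left out, KO differences ran from -0.21 to 0.92 for Lag3 in spleen, -0.54 to 0.57 for Tigit in colon, -0.11 to 0.33 for Tigit over 12 libraries and -0.055 to 0.26 in replicate 2. Their tissue difference ran from -0.70 to 0.46 for Tox, -0.61 to 0.24 for Tox2, -0.17 to 0.49 for Pdcd1 and -0.98 to 0.66 for Havcr2, and their replicate difference from -0.37 to 0.18 for Tox2 and -0.36 to 0.88 for Tigit. Between replicates Tox ran from -0.47 to 0.24 and Pdcd1 from -0.38 to 0.040. Colon against spleen gave -0.035 to 0.31 for Pdcd1 and -0.065 to 0.74 for Havcr2, small intestine against spleen -0.20 to 0.26 for Tox, small intestine against colon -0.15 to 0.43 for Tigit, and epithelium against colon -0.28 to 0.074 for Tox2. With the replicate block, colon against spleen called 4383 genes with Tigit at 2.80, the KO comparisons called 0, and no call of a member changed. Splits were not refitted with libraries left out. Where a group had 1 library left, that library was taken to vary like the others. Havcr2 in small intestine rests on 6 and 17 UMIs.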
